A study of Homo sapiens with 12 samples.

Results

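The MYC dimer network examined here is MYC together with MAX, MXD1, MXI1, MXD3, MXD4, MNT, MGA, MLX and MLXIP, 10 genes out of the 21207 in the table. The genes were chosen by name, by matching the Ensembl identifiers of the table to these symbols, and all 10 were present and tested. RNA was sequenced from the established ovarian cancer line HEYA8 (human) after 48 h in vehicle or in colforsin daropate at 1, 5 or 10 µM. Colforsin daropate is a water-soluble forskolin derivative, and forskolin activates adenylyl cyclase, the enzyme that makes cyclic AMP. Each of the 4 groups held 3 libraries, which the design text calls biological replicates and the titles number 6, 8 and 11. The title of the series concerns ovarian carcinomas driven by MYC.

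MYC is a basic helix-loop-helix transcription factor that binds DNA only as a dimer with MAX, mainly at the E-box CACGTG, and drives genes of ribosome production, nucleotide synthesis and cell division. MXD1, MXI1, MXD3, MXD4, MNT and MGA pair with the same partner, MAX, and repress or limit the genes that MYC activates; the MXD proteins and MNT do so by recruiting the SIN3 corepressor. MLX is a parallel hub: it pairs with MLXIP, the glucose sensor also called MondoA, and also with MXD1, MXD4 and MNT. In ovarian carcinoma MYC is among the genes most often gained in copy number. A change in the RNA of a member says nothing by itself of its protein, and the MYC protein in particular is known to turn over quickly.

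Levels are the authors' variance-stabilised values, on a log2 scale for abundant genes, and a difference of 1 is close to a 2-fold change in counts at the members' levels. The table was rounded in steps of 0.1 from a value of 10 up and of 0.01 under 10, so a spread of 0 means equal at that step. Read counts recovered from the values, scaled by the authors to a common depth, are added where a fold is given. Depth was 24.0 to 48.8 recovered megareads on genes per library. A gene was called where its adjusted p was under 0.05 in limma's moderated linear model over 17767 genes. Because libraries with the same number deviated together, calls made with the number as a block and not without it are named beside the result. PAX8, KRT8, KRT18 and VIM were abundant in every library (lowest level 12.5, 13.1, 13.6 and 17), whereas EPCAM and CD24 reached at most 5.72 and 6.25 against a floor of 4.86, and of the leukocyte genes CD14 and PTPRC stayed at or under 5.37 and 5.91. The other ovarian carcinoma markers analysed were ESR1 (5.26 to 5.6), WT1 (6.89 to 7.73), MSLN (7.29 to 7.86), SOX17 (7.73 to 9.08), MECOM (10.4 to 11.5) and KRT7 (11.5 to 13.7). Against vehicle at 10 µM, limma called PAX8 (0.70, adjusted p = 0.0108), KRT7 (1.13, 0.0368) and CD24 (1.01, 0.000996) higher, beside 11.2% of genes. KRT8 (-0.83, 0.00519) and KRT18 (-0.73, 0.0288) were called lower, beside 11.4% of genes. WT1, SOX17, MECOM and MSLN were not called. Of 4 endothelial markers CDH5 was at 10.8 to 13.1, and PECAM1, VWF and KDR were at 5.57 to 8.05. Of the 3 fibroblast markers in the analysed table PDGFRA and PDGFRB reached at most 6.30 and 6.66. The third, COL1A1, was higher at 10 µM than in vehicle by 2.60 ± 0.71 (SE, limma adjusted p = 0.0218). Of the mesenchymal markers, VIM was lower at 10 µM in numbers 6, 8 and 11 (-1.2, -0.8 and -0.8). CDH2 (1.4, 1.2 and 1.3) and FN1 (1.6, 2.2 and 2) were higher, and ZEB1 and SNAI2 overlapped with vehicle. The part of these marker differences in the members' differences was not tested. In bulk RNA, fewer cells expressing a gene and less of its RNA per cell cannot be told apart.

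No member was near the file minimum. The lowest single value of any member was 8.15, for MXD1 in vehicle library 6, which is 3.29 above the minimum of 4.86. MNT came next, with a lowest value of 8.70, and MYC was the most abundant, with 93.3% of all genes below its mean. Per length of exon, MYC stood first in vehicle at 2429 ± 341 recovered counts per kb (SD, n = 3). MLX followed at 768, and MXD3 at 469 ± 49.9 and MXI1 at 454 ± 38.2 overlapped each other. MAX, the partner that MYC and its antagonists share, stood at 314 counts per kb. MGA was at 200 ± 23.5, MXD4 at 129 ± 25.9, MLXIP at 72.4 ± 17.9, MXD1 at 68.6 ± 29.2 and MNT at 44.7 ± 3.02. In vehicle the ranges of MXD3 and MXI1, of MLXIP and MXD1, and of MXD1 and MNT overlapped, and the other neighbours were separated. At 5 and 10 µM the mean of MXD4 was above that of MGA, with overlapping ranges, and at 10 µM the ranges of MXD3 and MAX also overlapped.

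**Figure D1:**
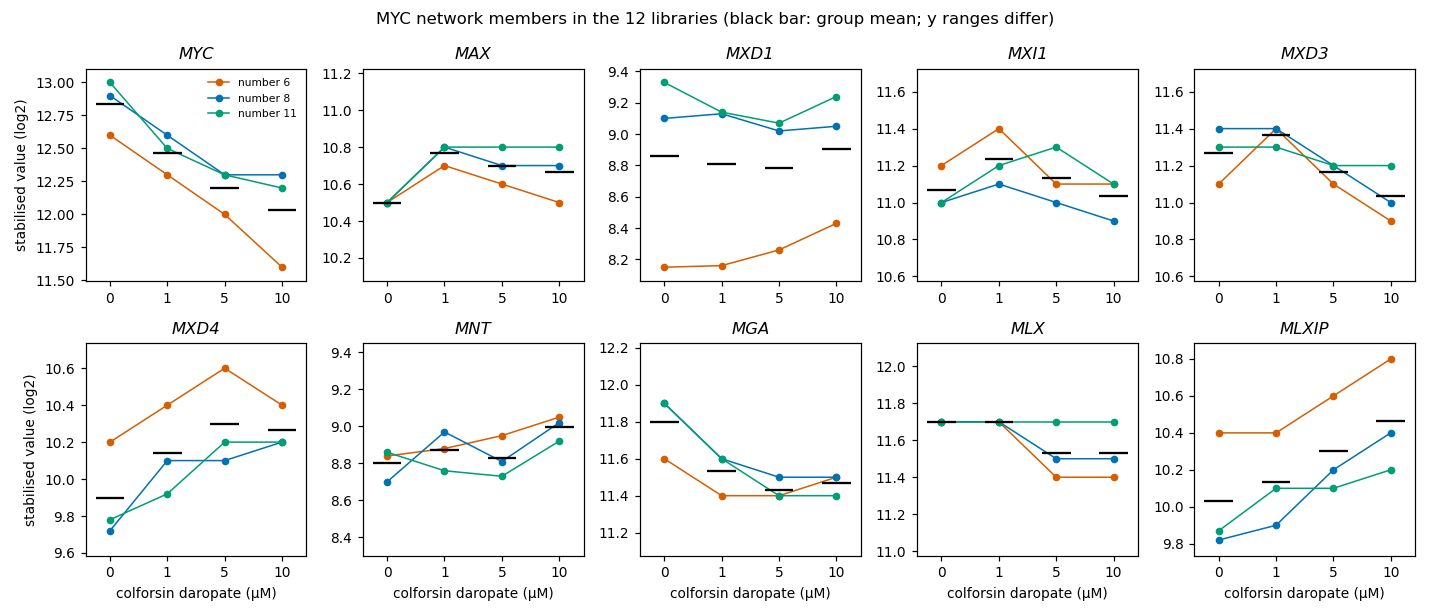
Stabilised value (log2) of each of the 10 members against dose of colforsin daropate (0, 1, 5 and 10 µM, evenly spaced, 0 being vehicle), 1 line per label number, with the group mean as a black bar; y ranges differ between panels. MYC and MGA sit lower at 5 and 10 µM than in all 3 vehicle libraries, and the line of number 6 runs apart in MXD1 and MLXIP at every dose.

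MYC RNA was lower at 5 and 10 µM than in vehicle, by more than the spread between libraries, and its mean was lower at each higher dose. The MYC level was 12.6, 12.9 and 13 in the vehicle libraries 6, 8 and 11, 12.3, 12.6 and 12.5 at 1 µM, 12, 12.3 and 12.3 at 5 µM and 11.6, 12.3 and 12.2 at 10 µM. Every library at 5 and 10 µM was below every vehicle library, while at 1 µM the highest library equalled the lowest vehicle one. Lower groups without overlap were seen in 16.8% of genes at 10 µM and 14.3% at 5 µM. In recovered counts MYC averaged 7290 ± 1024 in vehicle, 5623 ± 591 at the 1 µM dose, 4669 ± 547 at 5 µM and 4226 ± 1036 at 10 µM (SD, n = 3 each), so that 58.0% of the vehicle count was present at 10 µM. The gene lies on chromosome 8, 127735434 to 127741434, plus strand (GRCh38), and shares no exon with another gene in GENCODE 29. Its difference from vehicle was -0.80 ± 0.17 (SE) at 10 µM, with an adjusted p of 0.00691 in limma, and -0.63 ± 0.17 at 5 µM, with an adjusted p of 0.0309. At 1 µM it was -0.37 ± 0.17, which was not called (adjusted p = 0.34), but was called with the label number as a block (adjusted p = 0.0134). All 3 numbers gave a lower MYC than their own vehicle library at each dose, by 1.0, 0.6 and 0.8 at 10 µM. The same holds for 27.5% of genes at 10 µM, 25.9% at 5 µM and 22.1% at 1 µM. The slope over the 4 dose ranks was -0.27 ± 0.05 per step (adjusted p = 0.00204). The step between 1 and 10 µM, -0.43 ± 0.17, was not called (adjusted p = 0.179) and was called with the block (adjusted p = 0.0037); the step between 5 and 10 µM, -0.17 ± 0.17, was not called in either. Between 1 and 10 µM 4.71% of genes were called, and 20.9% with the block.

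The 10 µM call of MYC held when any 1 library was left out (limma adjusted p of 0.00489 to 0.0309). It was lost when all 4 libraries of number 8 (-0.90, adjusted p = 0.0849) or of number 11 (-0.80, adjusted p = 0.108) were left out. The 5 µM call was lost without vehicle library 8 (adjusted p = 0.0987) or 11 (0.11), and without 5 µM library 6 (0.109), 8 (0.0595) or 11 (0.0568), with MYC 0.53 to 0.68 below vehicle on the log2 scale in each case. Leaving out all 4 libraries of number 8 (-0.65, adjusted p = 0.239) or of number 11 (-0.60, adjusted p = 0.285) also lost the 5 µM call.

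Of the 10 members, 2 were called at 10 µM and both were lower, MYC and MGA, against 22.6% of all genes tested (11.2% higher and 11.4% lower). The same pair was called lower at 5 µM, where 15.1% of genes were called (7.67% higher and 7.44% lower), and no member was called at 1 µM, where 1.8% of genes were (1.18% higher and 0.613% lower). At an unadjusted p under 0.05, 1 member was higher and 1 lower at 1 µM, and limma's voom on recovered reads also called 0. By these counts the members were called about as often as genes in general. With the label number as a block, 2 members were called higher and 3 lower at 10 µM, where the block called 38.4% of all genes (18.7% higher and 19.7% lower). At 5 µM it called 3 members higher and 2 lower, beside 30.6% of genes (15.3% in each direction), and at 1 µM 1 higher and 2 lower, beside 12% of genes (6.76% higher and 5.26% lower). With number 6 left out, a setting chosen after seeing the data, the block gave 3 higher and 2 lower at 10 µM (17.6% and 18.8% of genes). The median difference of the members at 10 µM was 0.01, beside 0 for all genes tested.

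**Figure D2:**
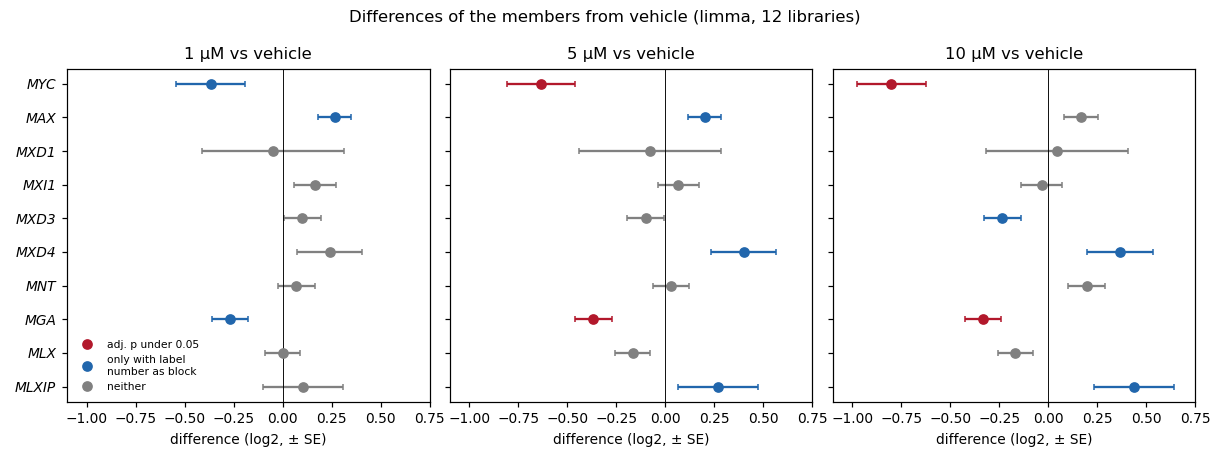
Difference of each member from vehicle (log2 value, x axis; point and bar, estimate ± SE from limma over 12 libraries) at 1, 5 and 10 µM. Red marks an adjusted p under 0.05, blue a call with the label number as a block but not without it, grey neither; MYC at -0.80 and MGA at -0.33 are the red points at 10 µM.

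MAX, the obligate partner of MYC, was not lower than vehicle in any treated library. Its level was 10.5 in all 3 vehicle libraries, 10.7, 10.8 and 10.8 in libraries 6, 8 and 11 at 1 µM, 10.6, 10.7 and 10.8 at 5 µM and 10.5, 10.7 and 10.8 at 10 µM. All libraries at 1 and 5 µM were above all vehicle libraries, by 1 to 3 rounding steps, and at 10 µM library 6 was level with vehicle. Higher groups without overlap were seen in 9.55% of genes at 1 µM and 14.9% at 5 µM. MAX differed from vehicle by 0.27 ± 0.09 (SE) at 1 µM (limma adjusted p = 0.144), 0.20 ± 0.09 at 5 µM (0.144) and 0.17 ± 0.09 at 10 µM (0.188), none of them called. With the block, MAX was called higher at 1 µM (adjusted p = 0.021) and 5 µM (0.0363) but not at 10 µM. At 10 µM it was called higher by limma without the libraries of number 6 (0.25, adjusted p = 0.0144) and with array weights (0.22, 0.00958). MAX lies on chromosome 14, 65006174 to 65102695, minus strand.

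The ratio of MYC to MAX in counts per kb was 6.53, 8.05 and 8.64 in vehicle libraries 6, 8 and 11, 4.58, 5.26 and 4.91 at 1 µM, 3.99, 4.58 and 4.27 at 5 µM and 3.23, 4.58 and 3.98 at 10 µM. All 9 treated libraries had a lower ratio than all 3 vehicle libraries. The ratio averaged 3.93 ± 0.68 at 10 µM, against 7.74 ± 1.09 in vehicle (SD, n = 3 each), and was not tested. The sum of the 6 MAX-binding antagonists MXD1, MXI1, MXD3, MXD4, MNT and MGA was 1364 ± 33.5 counts per kb in vehicle (SD, n = 3, as for each dose). It was 1444 ± 53.6 with 1 µM and 1346 ± 53.4 with 5 µM. The 10 µM libraries had 1285 ± 61. At 1 µM all 3 libraries (1401 to 1504) were above all vehicle libraries (1326 to 1388). MYC over that sum was 0.801 to 1.34 at 10 µM, against 1.55 to 1.97 in vehicle. In 10 µM library 6 the antagonists together had more RNA per length than MYC, 1267 against 1015 counts per kb. MXD3, whose reads are uncertain as described below, made up 360 of that sum, more than the gap to MYC. The order in that library therefore rests on MXD3. These ratios are of RNA, not of protein or of dimers.

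**Figure D3:**
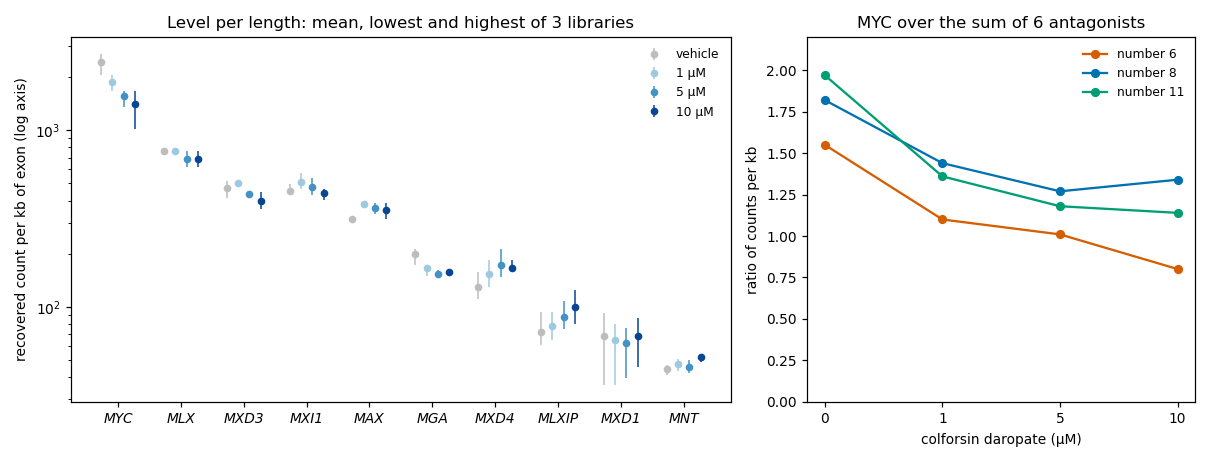
Left, recovered counts per kb of exon (log axis) of the 10 members in vehicle and at 1, 5 and 10 µM, as the mean with the lowest and highest of 3 libraries; MYC is first at every dose, at 1408 at 10 µM and 2429 in vehicle. Right, the ratio of MYC to the sum of the 6 antagonists in each library by dose and label number, 0.801 to 1.34 at 10 µM and 1.55 to 1.97 in vehicle.

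MGA, the largest member and the scaffold of a Polycomb complex (PRC1.6) that represses germline genes, was the only antagonist called. Its level was 11.6, 11.9 and 11.9 in vehicle libraries 6, 8 and 11, 11.4, 11.6 and 11.6 at 1 µM, 11.4, 11.5 and 11.4 at 5 µM and 11.5, 11.5 and 11.4 at 10 µM. The 5 and 10 µM libraries lay within 0.1 of each other and below all 3 vehicle libraries, as did 16.8% of genes at 10 µM and 14.3% at 5 µM for lower groups without overlap. MGA differed from vehicle by -0.33 ± 0.09 (SE) at 10 µM (limma adjusted p = 0.0231) and by -0.37 ± 0.09 at 5 µM (0.0209). At 1 µM it differed by -0.27 ± 0.09, not called (adjusted p = 0.176) but called with the block (0.0352). The recovered count at 10 µM was 78.7% of that in vehicle. The 10 µM call was lost without vehicle library 8 (adjusted p = 0.0935) or 11 (0.0901) or 10 µM library 11 (0.0747). It was also lost with all 4 libraries of number 8 (0.259) or 11 (0.294) left out. The 5 µM call was lost without vehicle library 8 (0.088) or 11 (0.0847) and without 5 µM library 6 (0.0647) or 11 (0.0655). Leaving out all 4 libraries of number 8 (0.267) or 11 (0.307) lost it as well. Fitting only the 2 groups compared gave adjusted p-values of 0.0715 at 10 µM and 0.0687 at 5 µM. MGA lies on chromosome 15, 41621224 to 41773081, plus strand, and 2.89% of its exon length overlaps an opposite-strand lincRNA.

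MXD4 and MLXIP were higher than vehicle in every pair of the same number at 5 and 10 µM, and with all 12 libraries and no weights both were called with the label number as a block and not without it. Of all genes, 27.2% were higher in every pair at 10 µM and 25.2% at 5 µM. MXD4 encodes a MAX and MLX partner linked to differentiation. Its level was 10.2, 9.72 and 9.78 in vehicle libraries 6, 8 and 11, 10.4, 10.1 and 9.92 at 1 µM, 10.6, 10.1 and 10.2 at 5 µM and 10.4, 10.2 and 10.2 at 10 µM. The groups overlapped, with vehicle library 6 as high as 10 µM libraries 8 and 11. MXD4 differed from vehicle by 0.37 ± 0.17 (SE) at 10 µM (limma adjusted p = 0.14, with the block 0.00266) and by 0.40 ± 0.17 at 5 µM (0.135, with the block 0.00204). Its recovered count at 10 µM was 130% of the vehicle count. MXD4 lies on chromosome 4, 2247432 to 2262294, minus strand, and its exons overlap only a microRNA.

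MLXIP, the partner through which MLX responds to glucose-6-phosphate, stood at 10.4, 9.82 and 9.87 in vehicle libraries 6, 8 and 11, 10.4, 9.90 and 10.1 at 1 µM, 10.6, 10.2 and 10.1 at 5 µM and 10.8, 10.4 and 10.2 at 10 µM. Within each number the 10 µM library was above its vehicle library, by 0.40, 0.58 and 0.33, while the groups as a whole overlapped through vehicle library 6. Its difference of 0.44 ± 0.20 (SE) at 10 µM had a limma adjusted p of 0.15, and of 0.000898 with the block. At 5 µM it was 0.27 ± 0.20 (adjusted p = 0.429, with the block 0.0209). Between 1 and 10 µM MLXIP differed by 0.33 ± 0.20, called with the block (0.0115) and not without it (0.372). MLXIP lies on chromosome 12, 122078722 to 122147347, plus strand. At 10 µM both MXD4 and MLXIP were also called without the block once vehicle library 6 was left out (adjusted p of 0.0382 and 0.0408) or all 4 libraries of number 6 were (0.00404 and 0.01).

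The promoter windows of the members are shown for the motifs through which a cyclic AMP signal and the network's own dimers are known to act. RefSeq windows of 250 bases before to 50 after a gene's start (GRCh38.p14) were available for 9 of the 10 members, 14 windows in all, and both strands were searched. MYC was the member without a window, so the counts below do not cover it. The palindromic cyclic AMP response element TGACGTCA, the site of CREB, was found in 1 of the 14 windows, that of MLXIP, and in 1.85% of the 35116 windows of all genes. The shorter run TGACG within that element was also searched, and 24.6% of all windows held it. Among the members it was in the MLXIP window, in 1 MGA window (first base at -10) and in the MLX window (-144 and 26). The MLXIP stretch upstream of the transcribed part, chr12:122078506-122078721, is printed 5′ to 3′ on the strand of the gene. TGACGTCA is in capitals, with its first base at position -57 from the start.
MLXIP: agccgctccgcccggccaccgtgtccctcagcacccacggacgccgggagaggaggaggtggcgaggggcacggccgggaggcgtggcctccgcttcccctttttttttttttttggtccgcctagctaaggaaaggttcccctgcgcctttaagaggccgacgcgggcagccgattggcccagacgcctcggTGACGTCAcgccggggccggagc
The E-box CACGTG, which the dimers of the network bind, was found in 3 of the 14 windows and in 7.26% of all windows. These were MXD4 (chr4:2262317-2262359, minus strand, first base at -238), MNT (chr17:2401223-2401278, minus strand, -193) and MLX (chr17:42567025-42567067, plus strand, -50), with the E-box in capitals.
MXD4: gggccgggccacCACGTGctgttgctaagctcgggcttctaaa
MNT: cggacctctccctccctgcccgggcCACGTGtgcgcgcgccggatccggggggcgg
MLX: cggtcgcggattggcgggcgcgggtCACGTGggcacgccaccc
A match is a run of letters and not a measured binding site, and the 3 genes with an E-box did not share a pattern: MXD4 and MNT were above vehicle at 10 µM by 0.37 and 0.20, and MLX was 0.17 below it on the log2 scale, none of them called in the fit without the block.

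MXD3, an antagonist most expressed in dividing cells, had levels of 11.1, 11.4 and 11.3 in vehicle libraries 6, 8 and 11, 11.4, 11.4 and 11.3 at 1 µM, 11.1, 11.2 and 11.2 at 5 µM and 10.9, 11 and 11.2 at 10 µM. Each 10 µM library was below the vehicle library of its number, and the groups overlapped. MXD3 differed from vehicle by -0.23 ± 0.09 (SE) at 10 µM (limma adjusted p = 0.103, with the block 0.0337) and by 0.10 ± 0.09 in the other direction at 1 µM. Between 1 and 10 µM it differed by -0.33 ± 0.09 (adjusted p = 0.0696, with the block 0.0116). MXD3 (chromosome 5, 177301461 to 177312757, minus strand) shares 22.5% of its exon length with PRELID1 on the opposite strand and 18% with RAB24 on its own strand. PRELID1, a mitochondrial lipid transfer gene, was at 11.2, 11.3 and 11.5 at 10 µM, against 11.4, 11.7 and 11.6 in vehicle. Whether the authors' counting used strand is not given in the sources used here, so reads of MXD3 and PRELID1 cannot be told apart with certainty, and MXD3 is uncertain for that reason.

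MNT, the antagonist present in most tissues and cell states, had values of 8.70 to 9.05 over the 12 libraries. Its level was 8.84, 8.70 and 8.86 in vehicle libraries 6, 8 and 11, 8.88, 8.97 and 8.76 at 1 µM, 8.95, 8.81 and 8.73 at 5 µM and 9.05, 9.02 and 8.92 at 10 µM. All 3 libraries at 10 µM were above all 3 vehicle libraries, as was the case for 17% of genes, and the lower doses overlapped with vehicle. The difference of 0.20 ± 0.09 (SE) at 10 µM was not called with limma (adjusted p = 0.157), and the block made no call either, while array weights called MNT higher at 10 µM (0.25, adjusted p = 0.0249). MNT lies on chromosome 17, 2384060 to 2401118, minus strand, and 12.2% of its exon length overlaps an antisense gene.

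MXI1, a MAX partner that is induced by hypoxia in other settings, was not called at any dose in any setting tried. Its level was 11.2, 11 and 11 in vehicle libraries 6, 8 and 11, 11.4, 11.1 and 11.2 at 1 µM, 11.1, 11 and 11.3 at 5 µM and 11.1, 10.9 and 11.1 at 10 µM. The groups overlapped at every dose, and the difference at 10 µM was -0.03 ± 0.11 (SE, limma adjusted p = 0.855). MXI1 lies on chromosome 10, 110207605 to 110287365, plus strand.

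MLX, the second hub, stood at 11.7 in all 3 vehicle libraries and in all 3 libraries at 1 µM, and at 11.4, 11.5 and 11.7 in libraries 6, 8 and 11 at both 5 and 10 µM. Numbers 6 and 8 were thus below vehicle at the higher doses and number 11 was level with it. The difference at 10 µM was -0.17 ± 0.09 (SE, limma adjusted p = 0.214), and the slope over dose rank was -0.07 ± 0.03 per step (adjusted p = 0.0961, with the block 0.0385). The slope was called in MYC and MGA among the members, both downward, against 13.5% of genes called downward, 13% upward and 26.5% in either direction. For MGA that call was lost without vehicle library 8 (limma adjusted p = 0.0869) or 11 (0.0857). It was also lost without all libraries of number 8 (0.162) or 11 (0.244). The block called 2 members upward by slope (MXD4 and MLXIP) and 4 downward (MYC, MGA, MXD3 and MLX), and 18.7% and 19.9% of genes (38.6% in all). MLX (chromosome 17, 42567068 to 42573239, plus strand) shares 18.1% of its exon length with PSMC3IP on the opposite strand, so its count per kb may be too low as well.

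MXD1, the founding MXD antagonist, differed more between label numbers than between doses. Its level was 8.15, 9.10 and 9.33 in vehicle libraries 6, 8 and 11, 8.16, 9.13 and 9.14 at 1 µM, 8.26, 9.02 and 9.07 at 5 µM and 8.43, 9.05 and 9.24 at 10 µM. Number 6 was the lowest in all 4 groups, and every dose group overlapped with vehicle. The dose difference of MXD1 at 10 µM was 0.05 ± 0.36 (SE, limma adjusted p = 0.947), and its direction turned with several settings. MXD1 lies on chromosome 2, 69897688 to 69942945, plus strand, and 3.73% of its exon length overlaps SNRNP27.

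The label number, whose meaning the labels do not give, was then tested as a factor with dose held fixed. It was called for 4 of the 10 members, against 30.8% of genes tested: MXD1 (limma adjusted p = 1.18e-05), MLXIP (0.000337), MXD4 (0.00166) and MYC (0.00184). Number 6 minus the mean of numbers 8 and 11 was -0.89 ± 0.07 (SE) for MXD1 and -0.39 ± 0.06 for MYC. It was 0.48 ± 0.06 for MLXIP and 0.37 ± 0.06 for MXD4. For MYC, MXD4 and MLXIP, number 6 therefore differed from the other numbers in the direction in which 10 µM differed from vehicle. Whether the slope over dose differed between numbers was tested by an interaction, called for 0 of the 10 members (adjusted p of 0.595 to 0.939, and 0 at an unadjusted p under 0.05, also 0 called by voom) and for 0.191% of genes. The 21 mitosis markers had a median level of 11.4 in vehicle library 6, against 9.21 and 8.82 in vehicle libraries 8 and 11, and of 9.40, 9.56 and 9.28 in libraries 6, 8 and 11 at 10 µM. In the same libraries MYC was lowest in number 6. In limma without the block 0 of the 21 were called at any dose against vehicle, also at an unadjusted p under 0.05. The block over all 12 libraries also called 0 of them against vehicle. With number 6 left out, a setting chosen after seeing the data, the block called 21 of them higher at 1 µM and 15 at 10 µM. Of the 17141 genes tested in that setting, 1438 were called higher at 1 µM and 3012 (17.6%) at 10 µM. In number 6 all 21 markers were below vehicle at 10 µM, with values from -2.69 (UBE2C) to -1.54 (AURKA). In numbers 8 and 11 AURKB was also lower (-0.07 and -0.08), and CENPF was level with vehicle. BUB1B was lower (-0.03) and TPX2 level in number 8. The other markers were above vehicle in both numbers. The part of the mitosis markers in the members' differences was not tested.

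MYCL, the MYC paralogue in the table, had levels of 6.15, 7.94 and 8.29 in vehicle libraries 6, 8 and 11, 6.34, 7.49 and 7.81 at 1 µM, 6.60, 7.12 and 7.48 at 5 µM and 6.29, 6.86 and 7.13 at 10 µM. In numbers 8 and 11 it was lower at each higher dose, and in number 6 it stayed between 6.15 and 6.60. MYCL differed from vehicle by -0.70 ± 0.52 (SE) at 10 µM, not called with limma (adjusted p = 0.371) and called with the block (0.0235). With number 6 left out and the block kept, the difference was -1.12 ± 0.07 (adjusted p = 0.000421). Of 3 paralogues listed, MYCL was the 1 found in the table, and MYCN and MLXIPL were not analysed here.

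TXNIP, an inhibitor of glucose uptake, is the best-known target of the MLXIP and MLX dimer, and MYC is known to repress it. Its level was 14.5, 14.1 and 14.4 in vehicle libraries 6, 8 and 11, 13.8, 13.5 and 13.9 at 1 µM, 12, 12.7 and 13 at 5 µM and 12.4, 12.1 and 12.7 at 10 µM. All treated libraries were below all vehicle libraries. TXNIP fell by 1.93 ± 0.23 (SE, log2) at 10 µM (limma adjusted p = 0.000215) and by 1.77 ± 0.23 at 5 µM (0.000655), and its count at 10 µM was 26.2% of that in vehicle. At 1 µM it was 0.60 lower, called with the block and not without it (0.0454, against 0.233). Within every label number MLXIP was above its vehicle value at 5 and 10 µM, and MYC was below its own. The element through which this dimer is known to act was searched only in the spelling that TXNIP carries, CACGAGNNNNNCACGAG. It pairs CACGAG at a spacing of 5 bases. The match in TXNIP was thus fixed in advance, and other spellings were not searched. That spelling was in 2 of all 35116 windows (0.0057%), among them the RefSeq window of TXNIP. The upstream part of that window, chr1:145996601-145996829, minus strand, is printed with both copies in capitals, the first base at -88.
TXNIP: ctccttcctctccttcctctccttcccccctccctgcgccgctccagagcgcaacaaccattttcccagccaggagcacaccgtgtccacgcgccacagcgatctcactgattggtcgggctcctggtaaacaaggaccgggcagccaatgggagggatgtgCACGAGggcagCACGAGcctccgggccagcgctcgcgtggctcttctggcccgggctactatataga

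**Figure D4:**
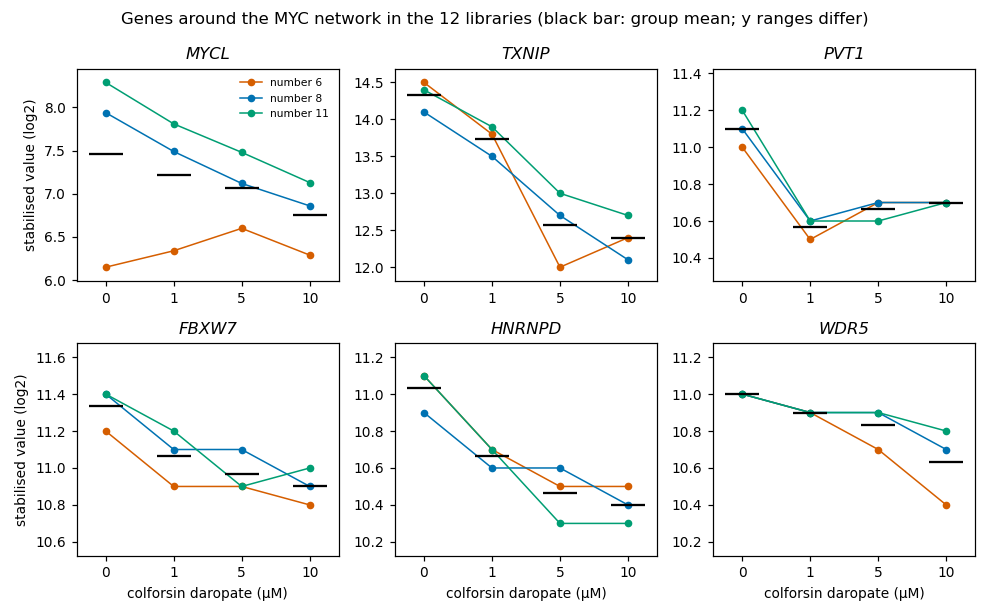
Stabilised value (log2) of MYCL, TXNIP, PVT1, FBXW7, HNRNPD and WDR5 against dose (0, 1, 5 and 10 µM, evenly spaced), 1 line per label number and a black bar for the group mean; y ranges differ. TXNIP is at 12.1 to 12.7 at 10 µM and 14.1 to 14.5 in vehicle, PVT1 is already at 10.5 to 10.6 at 1 µM, and MYCL starts at 6.15 in vehicle library 6.

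Genes that MYC is known to activate were described as a list of 68 tested, and 23 were lower and 2 higher at 10 µM, beside 11.4% and 11.2% of all genes. The median of the list was -0.30, beside 0 for all genes. At 5 µM 9 were lower and 2 higher with a median of -0.20, beside 7.44% and 7.67% of all genes. At 1 µM 1 was lower, beside 0.613% of all genes. FBL, the fibrillarin of the nucleolus, was the gene lower at 1 µM (-0.50 ± 0.11 SE, limma adjusted p = 0.041), and at 10 µM it was at 9.86, 10.2 and 10.2, against 11.5, 11.3 and 11.3 in vehicle (-1.28 ± 0.11, adjusted p = 2.48e-05). NPM1, the nucleophosmin that shuttles ribosomal particles, stood at 14.6, 14.7 and 14.8 at 10 µM, against 15.4, 15.5 and 15.5 in vehicle (-0.77 ± 0.09, adjusted p = 0.000177). SORD, a polyol pathway enzyme, was lower by the same step, -0.77 ± 0.10 (adjusted p = 0.000417). ODC1 went the other way: this rate-limiting enzyme of polyamine synthesis, a classical E-box target of MYC, was at 16.3, 15.8 and 16.1 at 10 µM, against 14.5, 14.9 and 14.9 in vehicle. ODC1 rose by 1.30 ± 0.15 (adjusted p = 0.00017), and its recovered count was 247% of the vehicle count. PLK4, a centriole kinase, showed the widest difference among those not called (-0.67 ± 0.39, adjusted p = 0.245), with vehicle library 6 at 9.88 and libraries 8 and 11 at 8.37 and 8.24. With the label number as a block 41 of the list were lower and 3 higher, beside 19.7% and 18.7% of all genes at 10 µM. With number 6 also left out 37 were lower and 6 higher, beside 18.8% and 17.6% of all genes.

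Genes that MYC is known to repress did not move one way. Of 19 tested, 3 were higher and 4 lower at 10 µM, beside 11.2% and 11.4% of all genes, with a median of -0.20. CDKN1C, a cyclin-dependent kinase inhibitor, was at 11.3, 10.3 and 10.4 at 10 µM, against 8.99, 8.15 and 8.15 in vehicle (2.24 ± 0.41 SE, limma adjusted p = 0.00264). FTH1, the ferritin heavy chain, rose by 1.10 ± 0.11 (adjusted p = 9.09e-05). ITGA6, an integrin subunit, was at 12.8, 12.9 and 13 at 10 µM, against 15.1, 14.6 and 14.7 in vehicle (-1.90 ± 0.14, adjusted p = 1.02e-05), and TXNIP is also on the list. CEBPD, a transcription factor of the acute phase, differed by 0.66 ± 0.27 and was not called (adjusted p = 0.105), but was called with the block (8.07e-05). The block called 6 of the list higher and 7 lower, beside 18.7% and 19.7% of all genes.

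**Figure D5:**
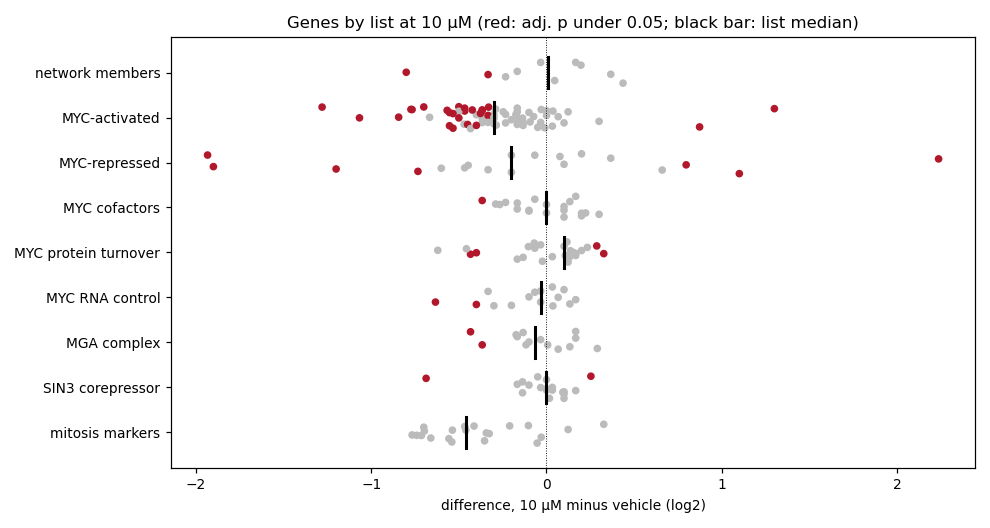
Difference at 10 µM from vehicle (log2, x axis) of every tested gene of the network and of 8 lists around it, 1 row per list, with called genes in red and the list median as a black bar. The median is -0.30 for MYC-activated genes and -0.20 for MYC-repressed genes, and the called genes lie mostly left of 0 in the first list and on both sides in the second.

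Among genes that control MYC RNA, 2 of 15 were lower at 10 µM, beside 11.4% of all genes, and 0 higher, also 0 higher at an unadjusted p under 0.05. PVT1, the long noncoding RNA next to MYC on chromosome 8, was at 10.5, 10.6 and 10.6 at 1 µM, against 11, 11.1 and 11.2 in vehicle. It was lower at 1 µM by limma (-0.53 ± 0.07 SE, adjusted p = 0.0035), a dose at which MYC was called with the block and not without it, and stood at 10.7 in all 3 libraries at 10 µM (-0.40 ± 0.07, adjusted p = 0.00203). HNRNPD, an AU-rich element binding protein also called AUF1, was at 10.5, 10.4 and 10.3 at 10 µM, against 11.1, 10.9 and 11.1 in vehicle (-0.63 ± 0.09, adjusted p = 0.00076). CNBP, a zinc finger protein that binds the MYC promoter, differed by -0.33 ± 0.14 (adjusted p = 0.114, with the block 0.00119). The block called 5 of the 15 lower, beside 19.7% of all genes.

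Of 25 genes acting on the MYC protein, 2 were higher and 2 lower at 10 µM, beside 11.2% and 11.4% of all genes. FBXW7, the ubiquitin ligase subunit that marks phosphorylated MYC for degradation, was at 10.8, 10.9 and 11 at 10 µM, against 11.2, 11.4 and 11.4 in vehicle (-0.43 ± 0.10 SE, limma adjusted p = 0.00891). DYRK2, a kinase that primes MYC for that step, was lower by 0.40 ± 0.08 (log2, adjusted p = 0.00352). BTRC, the subunit of another ligase reported to stabilise MYC, rose by 0.33 ± 0.08 (adjusted p = 0.00964). CIP2A, an inhibitor of the phosphatase that acts on MYC, differed by -0.62 ± 0.29 and was not called (adjusted p = 0.152, with the block 0.0226), with vehicle library 6 at 11.2 and libraries 8 and 11 at 10.0. With number 6 left out and the block kept CIP2A differed by -0.19 ± 0.06 (adjusted p = 0.0562).

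In the complexes through which the members act, called genes are counted here beside 11.2% of all genes called higher and 11.4% lower at 10 µM. Of 20 MYC cofactors, 1 was lower at 10 µM, WDR5, a docking site of MYC on chromatin, at 10.4, 10.7 and 10.8, against 11 in all 3 vehicle libraries (-0.37 ± 0.10 SE, limma adjusted p = 0.019). With the block 3 cofactors were higher and 3 lower, beside 18.7% and 19.7% of all genes, among them the acetyltransferase EP300 (0.30 ± 0.12, adjusted p = 0.101 without the block and 0.0296 with it). Of 14 genes of the MGA complex, WDR5 and TFDP1, the dimer partner of E2F6, were lower (TFDP1 -0.43 ± 0.12, adjusted p = 0.0226). TFDP1 differed by -0.9, -0.2 and -0.2 in numbers 6, 8 and 11, and by -0.20 ± 0.04 with number 6 left out and the block kept (adjusted p = 0.018). L3MBTL2, another subunit, was 0.29 ± 0.11 above vehicle at 10 µM, not called (adjusted p = 0.0758), and was called higher at 5 µM (0.36 ± 0.11, adjusted p = 0.045). Of 19 genes of the SIN3 corepressor, which the MXD proteins recruit, BRMS1L was lower (-0.69 ± 0.13, adjusted p = 0.00387) and ING1 higher (0.25 ± 0.08, adjusted p = 0.0451). HDAC1, the deacetylase of that complex, differed by 0.17 ± 0.11 (adjusted p = 0.324).

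The genes whose levels followed each member most closely were ranked by Pearson r over the 12 libraries after subtracting the mean of each label number, among 13427 genes with a mean more than 2 above the floor. Libraries share their dose, depth and scaling, so r is a description. For MYC these were BMAL2 (r = 0.995), LPAR3 (0.991), PRSS3 (0.991), CYTOR (0.991) and FABP5 (0.989). BMAL2, a clock transcription factor of the same helix-loop-helix class, averaged 12.5 in vehicle and 11.9, 11.4 and 11.1 at the doses of 1, 5 and 10 µM. FABP5, a fatty acid carrier, averaged 7.92, 7.52, 7.23 and 6.94 over the same groups. For MAX they were FHOD3 (0.976) and IDH2 (0.975), for MGA DPH5 (0.974) and PPM1D (0.972), and for MXD3 PRELID1 (0.972), which overlaps it, and SNX12 (0.957). For MXD4 they were SLC22A18AS (0.978) and CUEDC1 (0.975), for MLXIP ERVK13-1 (0.98) and PPP1R10 (0.977), and for MLX VRK1 (0.957) and SVBP (0.956). The closest genes to MXI1, MXD1 and MNT were PANX1 (0.962), an unnamed gene (0.913) and SLC24A1 (0.912).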

How the data were processed

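RNA sequencing of 12 libraries was analysed from 1 table of variance-stabilised values, which the authors deposited on a log2 scale; per the submitters' processing notes DESeq2 and the build GRCh38 (hg38) were used. Aligner, counting tool and strand setting are not given in the sources used here. Library medians were 8.21 to 8.29, so the values come scaled to a common depth and changes are relative to other genes. Of 21211 entries, 4 named no gene and stayed out: no feature, ambiguous, not aligned and alignment not unique. Gene reads made up between 33.9% and 36.7% of each library.

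Genes more than 1 above the minimum of 4.86 in at least 3 libraries were tested (17767), with limma 3.58.1 (R 4.3.3), 4 dose groups, a variance trend and Benjamini-Hochberg adjustment, two-sided at 0.05. Counts were recovered by inverting the stabilising curve: 96.7% of 57682 low values were whole reads within 0.0055, against 25.3% with the depths of other libraries. Per length, counts were divided by GENCODE 29 exon length, stretches shared with other genes included. The labels give each group the numbers 6, 8 and 11; same-number libraries deviated together in all 18 pairs (r of 0.316 to 0.777), so the numbers were taken to pair the libraries and the block is an alternative fit. Libraries of numbers 8 and 11 from different groups also deviated together (r of 0.199 to 0.57), and number 6 against both did not (-0.711 to -0.287), so the numbers mainly separate 6 from the other two. Nothing in the labels says whether libraries came from separate cultures beyond the design text's biological replicates.

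The members, gene lists and tests were chosen with earlier results of these data known. Named in each list were up to 4 genes called at 10 µM with the smallest p and the 1 uncalled gene with the widest difference (1 named gene is not reported here); for likeness, the 5 genes closest to MYC and the 2 closest to each other member. Alternatives covered filters, normalisation, variance model, array weights, voom on recovered reads, 2-group fits, the block and leaving out libraries. On simulated data the fit called 22%, 57.6% and 35.5% of differences of 0.5 at 1, 5 and 10 µM. Of differences of 1 it called 88.1%, 81.4% and 85%. A missing call of a difference under 0.5 therefore says little. Promoter sequences are from RefSeq (GRCh38.p14).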

Additional observations from a re-analysis of the deposited data

How the results depend on the processing

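Array weights and the label number as a block raised the counts of calls over all genes by more than 1.5 times. With the label number as a block, members called numbered 2 higher at 10 µM, 3 higher at 5 µM, 1 higher and 2 lower at 1 µM, 1 higher and 2 lower between 10 and 1 µM, and 2 higher and 4 lower by slope; over all genes 6824 were called at 10 µM against 4015 without it, 5436 against 2684 at 5 µM and 2135 against 319 at 1 µM. The block changed no other call of a member than those given beside the results. Array weights gave 4 higher at 10 µM (MAX, MXD4, MNT and MLXIP), 3 higher and 4 lower at 5 µM, 2 higher and 2 lower at 1 µM, 2 lower between 10 and 1 µM and 2 higher by slope, and turned MXD1 to -0.0653 at 10 µM and -0.0321 by slope, MXD3 to -0.0055 at 1 µM and MXI1 to 0.0038 by slope; over all genes they called 3633 higher and 3761 lower at 10 µM, 3829 and 3825 at 5 µM and 2675 and 2451 at 1 µM. Fits of 2 groups gave 1 member lower at 10 and at 5 µM, and over all genes 1283 higher and 1290 lower at 10 µM, 859 and 782 at 5 µM and 30 and 19 at 1 µM. Voom on recovered reads turned MXD1 to -0.0044 at 10 µM and -0.0032 by slope. The block without number 6, chosen after seeing the data, gave 3 higher at 10 µM, 2 higher at 5 µM, 1 higher and 2 lower at 1 µM, 1 lower between 10 and 1 µM and 2 higher by slope, and turned MXD1 to -0.07 at 10 µM and -0.03 by slope and MNT to -0.01 at 5 µM. The cause was not tested. With libraries or whole numbers left out, members called ranged from 0 to 3 higher and 0 to 3 lower at 10 µM, 0 to 3 higher and 0 to 2 lower at 5 µM, 0 to 1 higher and 0 to 2 lower at 1 µM, 0 to 1 lower between 10 and 1 µM, and 0 to 2 higher and 1 to 4 lower by slope. In those fits MXD1 ranged from -0.31 to 0.29 at 10 µM, -0.43 to 0.19 at 5 µM, -0.41 to 0.28 at 1 µM and -0.0764 to 0.0775 by slope, MXI1 from -0.10 to 0.0333 at 10 µM, -0.05 to 0.15 at 5 µM and -0.05 to 0.0043 by slope, MNT from -0.03 to 0.11 at 5 µM and -0.03 to 0.16 at 1 µM, and MLXIP from -0.03 to 0.29 at 1 µM. MYC and MGA stayed below vehicle at 5 and 10 µM in every setting. Rounding to 0.1 from 10 up limits differences of MAX, MLX and MGA to a few steps.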
